A study of Mus musculus with 10 samples.

Results

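The 9 genes described here are *Cdkn1a*, *Mdm2*, *Ccng1*, *Trp53inp1*, *Bax*, *Bbc3*, *Pmaip1*, *Phlda3* and *Eda2r*, target genes of the transcription factor p53 that were picked by name and found by their Ensembl identifiers among the 54146 genes counted. All 9 were among the 19773 genes that passed the expression filter, with between 50 and 6456 reads per embryo. RNA came from the lumbar spinal cord of mouse embryos at E12.5, with the dorsal root ganglia left in place, and was sequenced as polyA RNA, 1 embryo per library. The 5 *Dot1l*-cKO embryos carried 1 copy of the Wnt1-cre2 transgene and 2 floxed *Dot1l* alleles, and the 5 controls carried no cre. Effects of the transgene and of *Dot1l* loss therefore cannot be told apart in any comparison of the groups. Litter 1 held 3 controls with 2 floxed alleles and 3 *Dot1l*-cKO embryos, and litter 2 held 2 controls with 1 floxed allele and 2 *Dot1l*-cKO embryos, all on the background of the B6.Cg-E2f1Tg(Wnt1-cre)2Sor/J line. Wnt1-cre is active in the dorsal neural tube and the neural crest, so part of the tissue in each *Dot1l*-cKO library had not been recombined. In such bulk RNA, fewer cells of a type and less RNA per cell cannot be told apart.

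The p53 protein is stabilized by DNA damage and other stress, binds a sequence made of half-sites and activates genes that stop the cell cycle or start apoptosis. In the embryonic neural tube this response removes or arrests damaged progenitors. *Cdkn1a* encodes p21, an inhibitor of cyclin-dependent kinases, and it is also induced without p53 when cells leave the cycle and differentiate. The question was whether the higher *Cdkn1a* level of *Dot1l*-cKO embryos came with a change of the other p53 targets or stood alone among them, embryo by embryo and in each litter.

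The sequences before the transcription starts are shown here since the p53 half-site could be looked for in them. RefSeq windows of 300 bases (GRCm38.p6, from 250 before to 50 after a start) were at hand for 7 of the 9 genes, not for *Trp53inp1* and *Pmaip1*. A p53 half-site of 10 bases, searched on both strands, stood in 8.36% of 32851 mouse windows, and a pair of half-sites at most 13 bases apart stood in 0.0731% of them. The upstream start of *Cdkn1a* was 1 of the 24 windows with such a pair, at −73 and −51 from the start, and the downstream start held no half-site. *Mdm2*, *Ccng1* and *Bax* held 1 half-site each, at −186, −185 and −201. No half-site was found in the 3 windows of *Bbc3* or in those of *Phlda3* and *Eda2r*, which says nothing of sites elsewhere in these genes. The windows that held a half-site and the downstream *Cdkn1a* window, shown for contrast, are given 5′ to 3′ with the half-sites in capitals, as all 250 bases before both *Cdkn1a* starts and as the half-site with 25 bases on either side for the other 3 genes.
Cdkn1a upstream start (chr17:29090729-29090978, + strand): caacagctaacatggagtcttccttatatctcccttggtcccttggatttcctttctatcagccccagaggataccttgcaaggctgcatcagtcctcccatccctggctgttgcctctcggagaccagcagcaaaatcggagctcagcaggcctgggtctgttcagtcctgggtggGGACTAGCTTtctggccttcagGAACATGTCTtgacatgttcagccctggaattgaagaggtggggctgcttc
Cdkn1a downstream start (chr17:29093519-29093768, + strand): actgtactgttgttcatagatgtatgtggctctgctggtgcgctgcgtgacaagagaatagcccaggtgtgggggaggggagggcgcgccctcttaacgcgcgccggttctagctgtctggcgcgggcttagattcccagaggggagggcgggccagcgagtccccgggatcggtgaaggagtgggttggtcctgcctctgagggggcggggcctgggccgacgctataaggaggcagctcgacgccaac
Mdm2 (chr10:117710910-117710969, − strand): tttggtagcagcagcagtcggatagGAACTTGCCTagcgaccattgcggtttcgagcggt
Ccng1 (chr11:40755437-40755496, − strand): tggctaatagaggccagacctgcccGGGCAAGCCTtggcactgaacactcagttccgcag
Bax (chr7:45467065-45467124, − strand): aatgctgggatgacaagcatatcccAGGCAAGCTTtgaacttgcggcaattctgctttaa
A match of letters is not evidence of binding, which was not measured here.

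Levels are given in CPM, reads of a gene relative to all counted reads of its library after TMM scaling, and between genes as CPM per kilobase of exon. On the latter scale *Bax*, a pore-forming protein of the mitochondrial apoptosis pathway, had the highest level in controls (34.8 ± 1.78, SD, n = 5, for this and the following). *Ccng1* (16.0 ± 0.577), *Trp53inp1* (15.1 ± 2.47) and *Mdm2* (15.1 ± 1.53) came next and did not differ beyond their spread. *Phlda3* (4.37 ± 0.961), *Cdkn1a* (4.28 ± 0.268) and *Bbc3* (4.04 ± 1.10) formed a lower level, again within each other's spread. *Pmaip1* (1.04 ± 0.182) and *Eda2r* (0.236 ± 0.0517) were the lowest. In *Dot1l*-cKO embryos *Bbc3* (6.44 ± 2.04), *Cdkn1a* (5.43 ± 0.602) and *Phlda3* (5.26 ± 0.436) stood in another order but still within their spread, and the other 6 genes lay at 33.4 for *Bax*, 15.9 for *Ccng1*, 14.9 for *Mdm2*, 14.3 for *Trp53inp1*, 1.20 for *Pmaip1* and 0.252 for *Eda2r*.

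Among the 9 genes, only *Cdkn1a* (chromosome 17, from 29090976) rose in *Dot1l*-cKO embryos in the test of all 10 embryos on the filtered genes. Litter 1 controls had 15.4, 16.8 and 14.9 CPM and litter 2 controls had 14.4 and 14.7 CPM. The *Dot1l*-cKO embryos had 20.3, 20.5 and 16.9 CPM in litter 1 and 17.2 and 21.7 CPM in litter 2. Every *Dot1l*-cKO embryo was above every control, although the lowest of them, replicate 3 at 16.86 CPM, was barely above the highest control at 16.77 CPM. Such a separation was found for 1.01% of all genes tested. The mean was 15.2 ± 0.953 CPM (SD, n = 5) in controls and 19.3 ± 2.14 CPM (SD, n = 5) in *Dot1l*-cKO embryos, a log2 fold change of 0.34 (standard error 0.08, adjusted p = 0.0418 by Benjamini-Hochberg over all genes, quasi-likelihood test of edgeR). This is a rise of 26.9%, and the 95% interval of the log2 fold change ran from 0.17 to 0.52. An exact permutation test within litters gave p = 0.0167 (two-sided), the smallest its 120 arrangements allow. This value follows from the full separation of the groups and adds no separate support. The call of 1 of 9 genes compares with 1.9% of all genes called higher by the same test, and with 4.95% by DESeq2, which also called *Cdkn1a* alone (adjusted p = 0.00365).

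**Figure D1:**
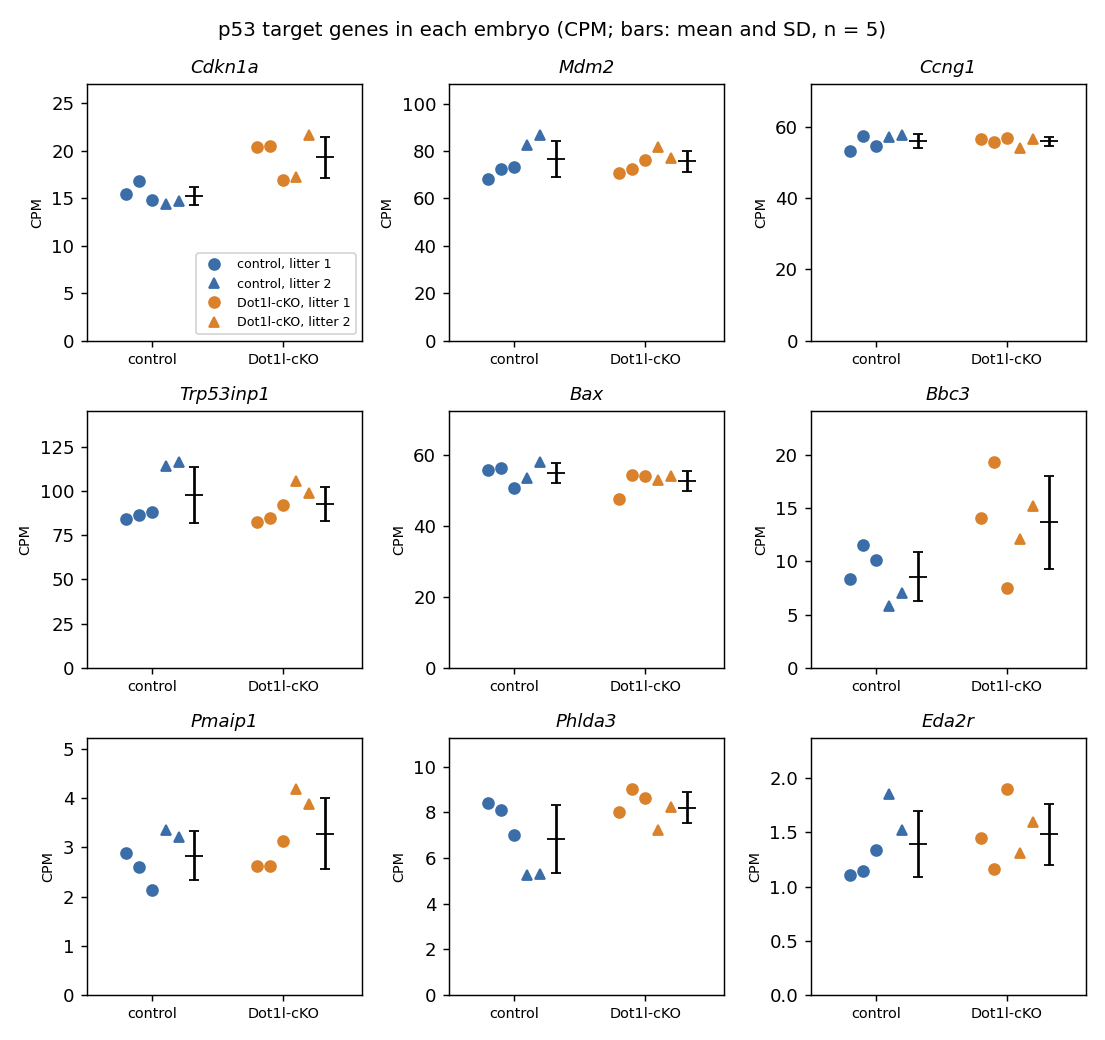
CPM of the 9 p53 target genes in each embryo, with controls in blue, Dot1l-cKO embryos in orange, litter 1 as circles and litter 2 as triangles; the bars give the mean and SD of 5 embryos. Only for Cdkn1a do all Dot1l-cKO points lie above all controls.

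The *Cdkn1a* difference had the same direction in both litters, with a log2 fold change of 0.30 in litter 1 (adjusted p = 0.223) and 0.43 in litter 2 (adjusted p = 0.0595), in edgeR fits of each litter alone that called 0.0623% and 5.13% of the genes. The call depended on single embryos. In 8 of the 10 fits without 1 embryo it was lost, at log2 fold changes between 0.28 and 0.38, and it was kept without *Dot1l*-cKO replicate 3 (adjusted p = 0.00894) and without *Dot1l*-cKO replicate 4 (adjusted p = 0.0432). Both *Dot1l*-cKO embryos of litter 2 had little *Xist*, the X-inactivation RNA, at 6.00 and 6.79 CPM against 499 CPM or more in the other 8 embryos, so in litter 2 sex and genotype cannot be told apart. Once *Xist* entered the model, the *Cdkn1a* log2 fold change was 0.28 and the adjusted p 0.275. Since *Xist* separated the groups of litter 2, such a fit takes the genotype difference of any gene mostly from litter 1. It is therefore close to the fit of litter 1 alone and does not isolate an effect of sex. Reads of *Cdkn1a* could also be shared with an antisense gene model that overlaps 7.68% of its exon bases, and whether reads were counted by strand is not given in the sources used here.

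*Mdm2* and *Ccng1*, the p53 targets that feed back on the pathway, stayed close to the control level. MDM2 is the ubiquitin ligase that degrades p53, and the transcription of its gene by p53 is a standard readout of p53 activity. *Mdm2* lay at 68.2, 72.5 and 73.2 CPM in litter 1 controls and at 82.8 and 86.8 CPM in litter 2 controls. The *Dot1l*-cKO embryos had 70.9, 72.4 and 76.1 CPM in litter 1 and 81.8 and 76.9 CPM in litter 2. The groups overlapped in litter 1, and in litter 2 both *Dot1l*-cKO embryos were below both controls. The log2 fold change was −0.02 (95% interval −0.11 to 0.08, adjusted p = 0.877), so that a rise above 5.91% lay outside the interval. *Ccng1*, which encodes the p53-induced cyclin G1, was at 53.1, 57.4 and 54.7 CPM in litter 1 controls and 57.2 and 57.7 CPM in litter 2 controls. In *Dot1l*-cKO embryos it was at 56.5, 55.6 and 57.0 CPM in litter 1 and 53.9 and 56.7 CPM in litter 2. The means were 56.0 and 55.9 CPM, with a 95% interval of the log2 fold change from −0.09 to 0.09 (adjusted p = 0.991). 

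*Trp53inp1*, a stress-induced nuclear protein that promotes p53 activity, and *Bax* gave no call either. *Trp53inp1* was at 84.3, 86.1 and 88.0 CPM in the litter 1 controls and 114 and 116 CPM in the litter 2 controls, against 82.6, 84.4 and 92.1 CPM and 105 and 99.0 CPM in the *Dot1l*-cKO embryos. Litter 2 was above litter 1 in both groups, and within litter 2 both *Dot1l*-cKO embryos were below the controls. The log2 fold change was −0.07 (95% interval −0.17 to 0.04, adjusted p = 0.460). *Bax* was at 55.8, 56.3, 50.7, 53.6 and 57.9 CPM in control replicates 1 to 5 and at 47.5, 54.3, 54.2, 52.8 and 54.1 CPM in *Dot1l*-cKO replicates 1 to 5. The groups overlapped, with a log2 fold change of −0.06 (95% interval −0.17 to 0.05, adjusted p = 0.535). A protein-coding gene model on the same strand overlaps 12.2% of the *Bax* exon bases. For these 4 genes, *Mdm2*, *Ccng1*, *Trp53inp1* and *Bax*, the whole 95% interval lay below the *Cdkn1a* estimate.

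The remaining 4 genes were higher in *Dot1l*-cKO embryos on average, without passing the test. *Bbc3* encodes PUMA, a BH3-only protein that starts apoptosis. Controls had 8.34, 11.6 and 10.1 CPM in litter 1 and 5.77 and 7.03 CPM in litter 2. The *Dot1l*-cKO embryos had 14.1, 19.3 and 7.52 CPM in litter 1 and 12.1 and 15.2 CPM in litter 2. *Dot1l*-cKO replicate 3 was below all 3 controls of its litter, while the other 4 *Dot1l*-cKO embryos were above every control. The log2 fold change, 0.70, was the largest of the 9 genes, but its standard error was 0.21 (95% interval 0.24 to 1.15, adjusted p = 0.0827). *Bbc3* passed the test in litter 2 alone (1.11, adjusted p = 0.00176), not in litter 1 alone (0.45, adjusted p = 0.501). It also passed with all embryos except *Dot1l*-cKO replicate 3 (0.90, adjusted p = 0.0024). With all embryos and no expression filter it was at 0.71 (adjusted p = 3e-11). That unfiltered fit called 2201 of 35244 genes, against 591 of 19773 with the filter, at nearly the same *Bbc3* log2 fold change. Once *Xist* entered the model the *Bbc3* value was 0.40 (adjusted p = 0.544). *Phlda3*, which encodes a p53-induced inhibitor of AKT signalling, was at 8.41, 8.10, 7.02, 5.24 and 5.31 CPM in control replicates 1 to 5 and 7.99, 9.00, 8.60, 7.20 and 8.22 CPM in *Dot1l*-cKO replicates 1 to 5. In litter 1 the groups overlapped, and in litter 2 both *Dot1l*-cKO embryos were above both controls. The log2 fold change of *Phlda3* was 0.29 (95% interval 0.07 to 0.50, adjusted p = 0.122), with 0.13 in litter 1 (adjusted p = 0.664) and 0.55 in litter 2 (adjusted p = 0.0499), and 0.10 with *Xist* in the model (adjusted p = 0.761).

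*Pmaip1*, which encodes the BH3-only protein NOXA, was low, at 2.88, 2.59, 2.13, 3.37 and 3.21 CPM in control replicates 1 to 5 and 2.61, 2.61, 3.12, 4.18 and 3.88 CPM in *Dot1l*-cKO replicates 1 to 5. Only in litter 2 were both *Dot1l*-cKO embryos above the controls, and the log2 fold change of 0.20 did not pass the test (95% interval −0.05 to 0.45, adjusted p = 0.344). *Eda2r*, an X-linked receptor of the TNF receptor family, had 50 to 133 reads per embryo, and its control levels ran from 1.11 to 1.85 CPM and its *Dot1l*-cKO levels from 1.16 to 1.90 CPM. Its log2 fold change was 0.33 in litter 1 and −0.21 in litter 2, and 0.11 over both (95% interval −0.28 to 0.49, adjusted p = 0.767), or 0.37 with *Xist* in the model (adjusted p = 0.506). For *Bbc3*, *Pmaip1*, *Phlda3* and *Eda2r* the interval included the *Cdkn1a* estimate, so a rise of the same size could not be told from none for *Pmaip1* and *Eda2r*.

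**Figure D2:**
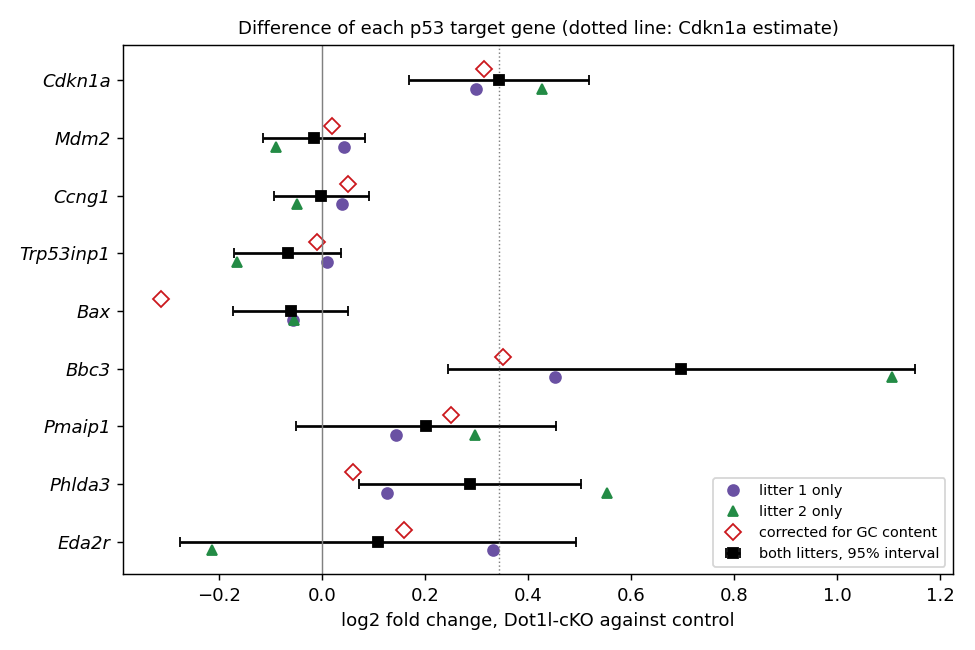
Log2 fold change of each gene, Dot1l-cKO against control, from the fit of both litters (black squares with 95% intervals), each litter alone (circles and triangles) and after correction of each library for GC content (open diamonds). The intervals of Mdm2, Ccng1, Trp53inp1 and Bax end to the left of the dotted line at the Cdkn1a estimate of 0.34.

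The ratio of *Cdkn1a* to each of the other 8 genes within a library does not depend on how libraries are scaled. On the log2 scale the ratio to *Ccng1* was higher in *Dot1l*-cKO embryos by 0.34, to *Bax* by 0.40, to *Mdm2* by 0.35 and to *Trp53inp1* by 0.41. Exact permutation within litters gave p = 0.0167 for *Ccng1* and *Bax*, the smallest it can give, and p = 0.05 for *Mdm2* and *Trp53inp1* (two-sided), and none of the 8 ratios passed 0.05 after Benjamini-Hochberg adjustment (adjusted p = 0.0667 and 0.1). The ratio of *Cdkn1a* to *Bbc3* was lower by 0.31 (exact p = 0.233, adjusted p = 0.373), and those to *Pmaip1*, *Eda2r* and *Phlda3* differed by 0.14, 0.24 and 0.05 (exact p of 0.283 or more). Without *Dot1l*-cKO replicate 3, 5 of the 8 ratios passed after adjustment (adjusted p = 0.0267 each), those to *Mdm2*, *Ccng1*, *Trp53inp1* and *Bax* being higher and that to *Bbc3* lower (−0.50). Each of these 5 had an exact p of 0.0167, the smallest that 60 arrangements allow. Without any other single embryo none of the 8 ratios passed. Replicate 3 had the lowest *Cdkn1a* level of the *Dot1l*-cKO embryos, and all 8 ratios share *Cdkn1a*, so they are not separate tests.

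Levels of several of the 9 genes differed between the 2 litters. In the litter term of the model, *Mdm2* (log2 difference 0.18, adjusted p = 0.00716), *Trp53inp1* (0.33, adjusted p = 1.6e-04) and *Pmaip1* (0.46, adjusted p = 0.00817) were higher in litter 2 and *Phlda3* was lower (−0.35, adjusted p = 0.0175). These are 4 of 9 genes, against 34.7% of all genes tested, and among controls the litter cannot be told apart from the number of floxed alleles. For *Cdkn1a* the litter difference was −0.05 (adjusted p = 0.716). None of the 9 genes passed the test of a genotype difference that differs between litters, which 0.0101% of all genes passed in edgeR. Without an expression filter *Bbc3* passed it (adjusted p = 0.0419), in a fit that called 437 of 35244 genes. The lowest p of the 9 was that of *Phlda3* (unadjusted p = 0.0298, adjusted p = 0.577), and for *Cdkn1a* the adjusted p was 0.848.

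Libraries also differed in how counts followed the GC content of genes, and the levels of several of the 9 genes followed this. The trend, as the change of log2 CPM per 10 percentage points of exon GC relative to the mean of all embryos, was −0.01, 0.04 and 0.003 in the controls of litter 1, −0.13 in both controls of litter 2, 0.04, 0.12 and −0.04 in the *Dot1l*-cKO embryos of litter 1, and 0.02 and 0.08 in those of litter 2. After the litter mean was taken off, *Bbc3* (65.2% GC) followed it across the 10 embryos with r = 0.96, *Cdkn1a* (54.4% GC) with r = 0.86, *Phlda3* (62.6% GC) with r = 0.82 and *Trp53inp1* (38.8% GC) with r = −0.86. *Bax*, as rich in GC at 63.5%, had r = −0.23. These correlations are descriptions over points that share a library with the trend itself. With a correction of each library for GC content, *Cdkn1a* still passed the test (log2 fold change 0.31, adjusted p = 0.0424), whereas the log2 fold change of *Bbc3* became 0.35 (adjusted p = 0.139), that of *Phlda3* 0.06 (adjusted p = 0.792) and that of *Bax* −0.31 (adjusted p = 0.0925).

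**Figure D3:**
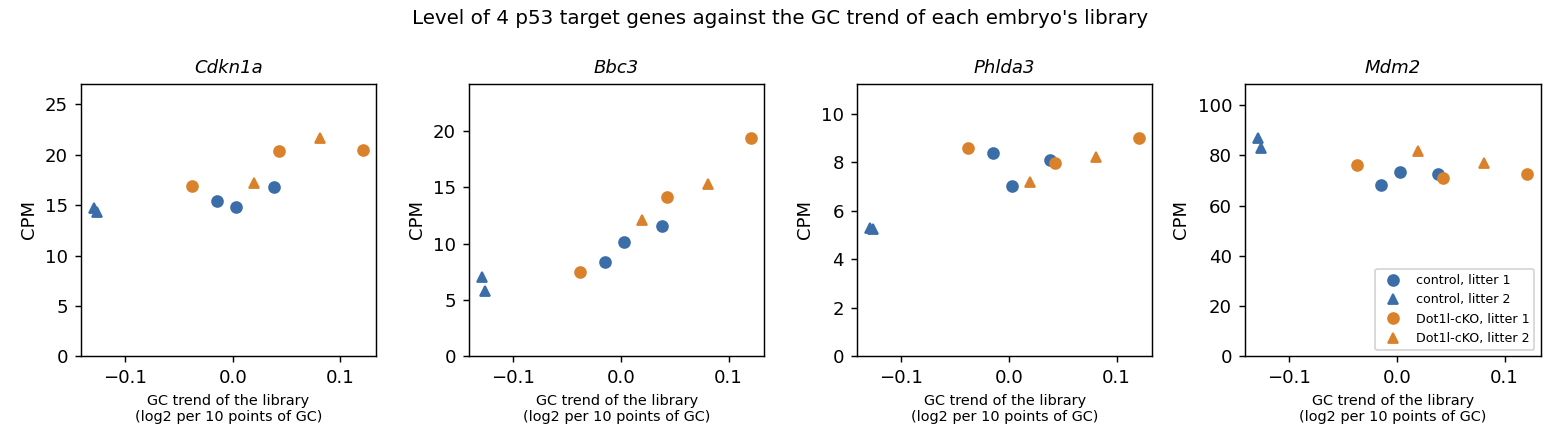
CPM of Cdkn1a, Bbc3, Phlda3 and Mdm2 in each embryo against the GC trend of its library, with colours for the groups and symbols for the litters. Bbc3 rises with the trend from 5.77 CPM in a control of litter 2 to 19.3 CPM in a Dot1l-cKO embryo of litter 1, whereas Mdm2 does not rise with it.

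The wider p53 pathway was examined with lists of genes known for their roles. Of 35 other p53 targets 34 were tested, and 1 rose, *Ddit4*, which encodes the mTOR inhibitor REDD1 and is also induced by hypoxia and glucocorticoids. Its level was 45.3 ± 8.17 CPM (SD, n = 5) in controls and 75.9 ± 14.5 CPM (SD, n = 5) in *Dot1l*-cKO embryos (log2 fold change 0.75, adjusted p = 0.0173), with all *Dot1l*-cKO embryos above all controls. The value was 0.58 in litter 1 alone (adjusted p = 0.173) and 1.03 in litter 2 alone (adjusted p = 7.8e-05), and the *Ddit4* call was also lost with *Xist* in the model (0.55, adjusted p = 0.170), without litter (adjusted p = 0.233), and without control replicate 1, control replicate 4 or *Dot1l*-cKO replicate 5 (adjusted p = 0.0596, 0.0546 and 0.0568). Over all genes 1.9% were called higher and 1.09% lower. None of the 34 fell, 15 log2 fold changes were above 0 and 19 below, and the median was −0.01, as it was over all genes tested. The next gene by adjusted p was *Zfp365*, a gene of genome stability, at 0.30 (adjusted p = 0.123). *Sesn1* (−0.01, adjusted p = 0.935) and *Sesn2* (0.11, adjusted p = 0.435), the sestrins of the stress response, did not pass, and neither did *Trp53cor1*, the p53-induced non-coding RNA next to *Cdkn1a* (0.58 CPM in controls and 0.53 CPM in *Dot1l*-cKO embryos, adjusted p = 0.871). *Trp53* itself, the gene of p53, ran from 84.9 to 109 CPM over the controls and from 76.3 to 110 CPM over the *Dot1l*-cKO embryos (−0.08, adjusted p = 0.411). Among 18 tested genes of p53 and its regulators no gene passed in the edgeR fit of both litters. In that fit 6 had an unadjusted p under 0.05, against 21.7% of all genes. DESeq2 called 4 of the 18 lower, against 3.82% of all genes. The median was −0.09. The smallest adjusted p values belonged to *Usp7*, a deubiquitinase that acts on MDM2 and p53 (−0.13, adjusted p = 0.0742), and to *Atm*, the kinase of the DNA break response (−0.24, adjusted p = 0.0896). In litter 2 alone *Atm* was called lower (−0.29, adjusted p = 0.0245), in the edgeR fit that called 5.13% of all genes. *Usp7* and *Atm* were each called in 1 of the 10 fits without 1 embryo.

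Of the 17 genes of the apoptosis machinery, *Bok*, a BCL2-family member, rose (0.28, adjusted p = 0.0467) and none fell, with a median of 0.01, where 1.9% of all genes were called higher. The *Bok* call was lost in 9 of 10 fits without 1 embryo and in 6 of the 10 other alternatives. With the correction for GC content the *Bok* value was 0.10 (adjusted p = 0.405). *Casp8*, the initiator caspase of death receptors, was at −0.34 (adjusted p = 0.0894). DESeq2 called 2 of the 17 higher (4.95% of all genes) and 1 lower (3.82% of all genes), which was *Casp8* (adjusted p = 0.0313).

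The genes of cell cycle exit other than *Cdkn1a* gave no call over both litters. Of 10 genes tested none passed in edgeR or DESeq2, none had an unadjusted p under 0.05, and the median was 0.02. In litter 2 alone *Cdkn1c* (0.37, adjusted p = 0.0241) and *Gadd45g* (0.58, adjusted p = 0.0345) were called higher, in the fit that called 5.13% of all genes. *Cdkn1b*, which encodes the inhibitor p27, was at 91.0 ± 2.30 CPM (SD, n = 5) in controls and 89.1 ± 5.74 CPM (SD, n = 5) in *Dot1l*-cKO embryos (adjusted p = 0.762), and *Cdkn1c*, the gene of p57, at 351 ± 59.5 and 401 ± 128 CPM (SD, n = 5, adjusted p = 0.460). *Gadd45g*, a growth-arrest gene of newborn neurons, had a log2 fold change of 0.31 (adjusted p = 0.279) and the retinoblastoma gene *Rb1* one of −0.08 (adjusted p = 0.315). Of 27 proliferation genes tested 5 fell, against 1.09% of all genes, and all 27 log2 fold changes were below 0, with a median of −0.27. *Mki67*, which marks cycling cells, had −0.49 (adjusted p = 0.0376), and the replication genes *Cdc45*, *Mcm6* and *Pcna* had −0.37, −0.25 and −0.19 (adjusted p = 0.0306, 0.0318 and 0.0492), with the cyclin gene *Ccne1* at −0.34 (adjusted p = 0.0364). These calls were lost in 6 (*Mki67*) to 9 (*Pcna*) of the 10 fits without 1 embryo and in 3 (*Mcm6*) to 5 (*Pcna*) of the 10 other alternatives. DESeq2 called 15 of the 27 lower, against 3.82% of all genes. *E2f1*, a cell cycle factor and the locus of the cre transgene in the line name, was at −0.32 (adjusted p = 0.04997). This call was lost in 9 of 10 fits without 1 embryo and in 5 of the 10 other alternatives. Every *Dot1l*-cKO embryo and no control carried the transgene, so its insertion, cre and *Dot1l* loss cannot be told apart here.

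**Figure D4:**
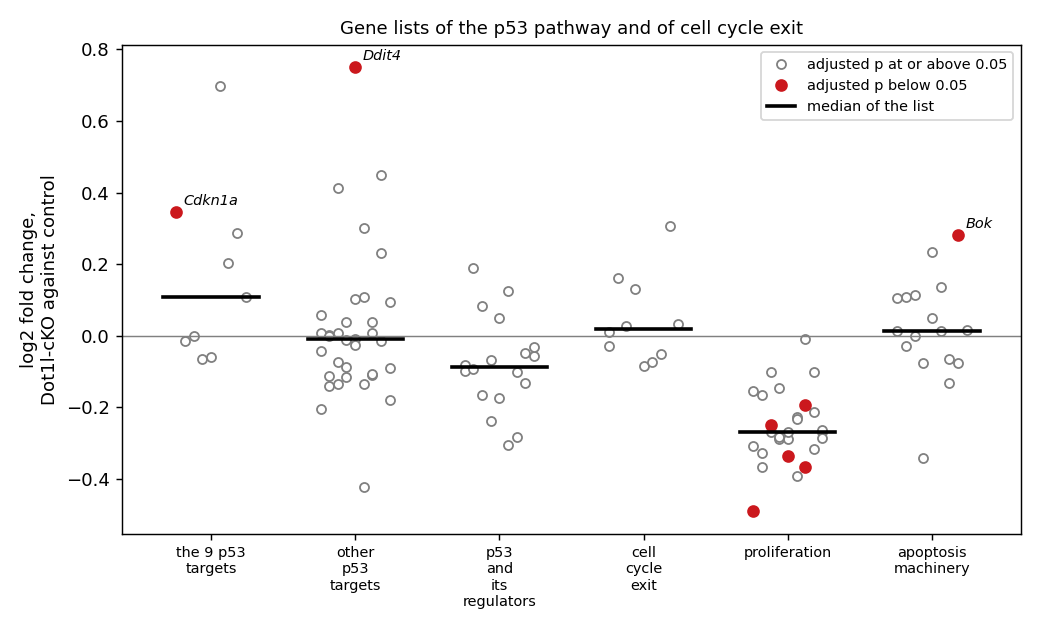
Log2 fold changes of the tested genes of 6 lists, Dot1l-cKO against control, with red for an adjusted p below 0.05 and a bar for the median of each list. Cdkn1a is the only red point of its list, Ddit4 the only one of the 34 other p53 targets, and the proliferation genes lie below 0.

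The genes whose levels across the 10 embryos were most like those of *Cdkn1a* were none of the listed p53 targets. By Pearson correlation of log2 CPM after the litter mean was taken off, over 13589 genes with a mean log2 CPM of at least 1, they were *0610012G03Rik* (r = 0.988), *Stmn3* (0.987), *Cadm4* (0.985), *Camk2n2* (0.979) and *Paxx* (0.979). In this order they had log2 fold changes of 0.19, 0.39, 0.26, 0.47 and 0.38 in *Dot1l*-cKO embryos. A difference of this sign follows from their choice, since genotype was not removed from the levels that were compared and *Cdkn1a* itself separated the groups. Among the members, *Bbc3* came at rank 416 (r = 0.87) and *Phlda3* at rank 878 (0.80), and *Pmaip1* (0.40) and *Ccng1* (0.09) further down. *Bax* (−0.33), *Mdm2* (−0.47) and *Trp53inp1* (−0.77, rank 12729) went the other way, and *Eda2r* was below the level asked for. With the genotype means also taken off, r with *Cdkn1a* was 0.78 for *Bbc3*, 0.47 for *Phlda3*, −0.61 for *Mdm2* and −0.85 for *Trp53inp1*. It was 0.45 for *Ccng1*, and it changed sign for *Pmaip1* (−0.35) and *Bax* (0.04). All these points share the libraries and their GC trend.

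Total counts lay between 40949585 and 68928443 per embryo, *Dot1l* counted over the whole gene was at 0.17 (adjusted p = 0.130) and so does not check the genotype, and no marker gene of the tissue lists was at 0 in all embryos. The summed level of 10 spinal cord markers was 3337 to 3947 CPM in controls and 3459 to 4298 CPM in *Dot1l*-cKO embryos, and that of 10 dorsal root ganglion markers 708 to 1312 and 767 to 1234 CPM. The 8 skeletal muscle markers summed to 9.49 to 131.5 CPM in controls and 9.83 to 96.3 CPM in *Dot1l*-cKO embryos, and none passed the test. In litter 2 they summed to 128 and 127 CPM in the controls and to 34.2 and 38.5 CPM in the *Dot1l*-cKO embryos. Their median log2 fold change was −1.20, with −0.75 in litter 1 and −1.69 in litter 2, and their part in the *Cdkn1a* difference was not tested. Median log2 fold changes were 0.09 for spinal cord, −0.01 for ganglion, 0.08 for neural crest glia, −0.21 for endothelium, 0.19 for microglia, −0.07 for mesenchyme and 0.10 for erythroid markers, and *Hbb-bh1* of erythroid cells (0.41, adjusted p = 0.0348) was among the genes of these lists that passed the test. In litter 1 and litter 2 alone these medians were −0.17 and 0.46 for ganglion, −0.06 and 0.47 for glia, −0.37 and 0.04 for endothelium, −0.30 and 0.25 for mesenchyme, and −0.09 and 0.40 for erythroid markers. Immediate early and stress genes, which also respond to dissection, gave no call among 13 tested in the edgeR fit of both litters. Of these, 3 had an unadjusted p under 0.05 (21.7% of all genes) and 2 were called higher by DESeq2 (4.95% of all genes). Their median was 0.20, with 0.04 in litter 1 and 0.43 in litter 2. *Jun* and *Junb* were each called higher in 3 of the 10 other alternatives and in 1 fit without 1 embryo. The summed level of the immediate early and stress list, 222 to 246 CPM in controls and 221 to 285 CPM in *Dot1l*-cKO embryos, went with *Cdkn1a* across embryos (r = 0.75 after the litter mean was taken off, n = 10), and its part in the *Cdkn1a* difference was not tested.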

How the data were processed

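Lumbar spinal cord RNA of 5 control and 5 *Dot1l*-cKO embryos was used. What the authors deposited were raw read counts for each gene, made with TrimGalore, STAR on mm10 and featureCounts in snakePipes. Names came from GENCODE annotation of GRCm38, to which 54079 of 54146 identifiers matched. Only counts were used, and no deposited column was left without an embryo.

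Counts were tested with edgeR 4.0.16 in R 4.3.3 (quasi-likelihood test, default expression filter, TMM, litter as a term) and adjusted by Benjamini-Hochberg over all genes at 0.05. Standard errors came from the F statistic. Alternatives used DESeq2 1.42.0, limma 3.58.1 (voom), size factors in place of TMM, other filters, no litter, *Xist* as a covariate, each litter alone, an offset for GC content (known for 19755 of 19773 genes tested), and each embryo left out. Log2 CPM used a prior count of 0.5, and count ratios a pseudocount of 0.5. The edgeR, DESeq2 and limma-voom fits of genotype, litter and their interaction were tested on simulated data, and the other steps were not.

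The 9 genes and all lists were chosen with earlier results of these data known. Named were the 9 genes, *Dot1l*, *Trp53*, *E2f1* and *Xist*, the called genes of each list (at most 6, otherwise the 2 with the lowest adjusted p), and the 5 genes most like *Cdkn1a*; *Sesn1*, *Sesn2*, *Trp53cor1*, *Cdkn1b* and *Cdkn1c* were added after their values were seen, and some named genes of the marker and stress lists are not reported here. Lists were other p53 targets, p53 and its regulators, cell cycle exit, proliferation, apoptosis machinery, immediate early and stress genes, and markers of 8 tissues. All 20 embryo pairs of a group differed beyond sampling noise (chi-square per gene 9.30 or more).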

Additional observations from a re-analysis of the deposited data

Results flagged for a closer look

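In 1 of 18 groups of 5 embryos, 1 embryo stood far from the others. The *Bax* level of *Dot1l*-cKO replicate 1 was 47.5 CPM, with the other 4 *Dot1l*-cKO embryos between 52.8 and 54.3 CPM. About 1 in 20 groups shows such a gap by chance. In the fits without 1 embryo the log2 fold change of *Bax* stayed between −0.09 and −0.02, and no call was made.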

How the results depend on the processing

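The *Cdkn1a* difference was positive in every alternative, between 0.28 and 0.43. Its call was kept in 5 of 10 alternatives and lost with limma-voom (0.34, adjusted p = 0.0540), without litter (0.34, adjusted p = 0.331), with *Xist* as a covariate (0.28) and in litter 1 (0.30) and litter 2 (0.43) alone. Without 1 embryo it lay between 0.28 and 0.40. The genes called higher among the 9, 1 in the report, were 2 without an expression filter and in litter 2, 0 with limma-voom, without litter, with *Xist* and in litter 1, and 0 to 2 without 1 embryo. No gene of the 9 was called lower in any of these alternatives. Among all genes, 591 of 19773 were called in either direction, against 2201 of 35244 without a filter and 1532 of 17472 with DESeq2. Without litter 0 were called (1935 at an unadjusted p under 0.05), and with *Xist* 42. In litter 1 alone 12 of 19275 were called, in litter 2 alone 964 of 18786 (5.13%), and without 1 embryo 53 to 1377. The interaction with litter gave 2 genes, 104 with DESeq2, 437 without a filter and 1 to 126 without 1 embryo. Of the 8 ratios 0 passed, 2 with permutation across litters and 0 to 5 without 1 embryo.

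Several estimates changed sign. *Ccng1* was at 0.0066 without a filter, 7.3e-04 with limma-voom, 0.036 with *Xist*, 0.039 in litter 1, 0.051 with GC correction, and −0.017 to 0.022 without 1 embryo. *Mdm2* was at 0.044 with *Xist*, 0.042 in litter 1, 0.019 with GC correction and −0.039 to 0.012 without 1 embryo. *Trp53inp1* was at 0.015 with *Xist* and 0.0089 in litter 1, *Eda2r* at −0.21 in litter 2 and −0.035 to 0.21 without 1 embryo, and *Trp53* at 0.049 in litter 2. The markers *Lbx1* and *Foxd3*, at 0.18 and 0.31 without a correction, were at −0.018 and −0.019 with GC correction, and *Col3a1*, at −0.25, was at 0.094 in litter 2. The ratio to *Eda2r* was −0.010 in litter 1, and that to *Phlda3* −0.13 in litter 2 and −0.019 to 0.093 without 1 embryo. The causes were not tested. No paired analysis was possible because the labels give the embryos no shared number beyond the litter, which is a term of the model. With 580 to 1301 reads of *Cdkn1a* per embryo, the spread between 5 embryos of a group limits these estimates.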
